A study of Mus musculus with 5 samples.

Results

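Proteins bound for the cell surface, the lysosome or secretion enter the endoplasmic reticulum (ER) through a common route, and 49 genes of that route were followed here in mouse spinal cord. They were taken as a fixed list of symbols, chosen with earlier results of these data known. The symbols were matched by their Ensembl identifiers in GRCm38 among the 55471 genes of the count table, and all 49 were found. By role they fall into 15 genes of targeting and the translocon, 5 of signal peptidase, 12 of the oligosaccharyl transferase and its glycan, and 17 of export from the ER. The study set spinal cord of Lhx1os KO mice, in 2 libraries, against that of WT mice, in 3 libraries. The KO mice carry Lhx1os -/-, made in C57BL/6J eggs with Cas9 and a guide to the second exon of this long non-coding RNA gene, into which a synthetic polyadenylation site followed by MAZ sequences, which stall the polymerase, was placed to end transcription early. The change is in the germline and so in every cell, and the labels do not say how many founders the line came from. The WT mice are Lhx1os +/+ on the same C57BL/6J background. All 5 libraries are from males aged 3 months in a resting state, and no other allele or agent is named in the labels. From powdered cord, polyadenylated RNA was sequenced with a stranded kit.

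The route works in order. The signal recognition particle (SRP) binds the leading peptide as it leaves the ribosome and brings it to the ER membrane, where the Sec61 channel lets the chain through. Signal peptidase removes the leading peptide, the oligosaccharyl transferase attaches a preformed sugar tree to asparagine, glucosidases trim it during folding, and the COPII coat buds the folded cargo towards the Golgi. Neurons and oligodendrocytes depend on this route for receptors, channels and myelin proteins, and in secretory cells such as plasma cells its genes rise together under the transcription factor XBP1.

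Libraries held 15973063 to 19437533 counts over 21540 to 21913 genes, of which 16052 were tested. Lhx1os itself stood at 0.797 and 0.688 CPM (counts relative to library size, scaled by TMM factors) in the KO libraries, against 3.33, 3.37 and 3.14 CPM in the WT libraries, with an adjusted p of 0.0589 in edgeR's quasi-likelihood test. Markers of neural tissue were present, with 5 neuronal genes summing to 7058 to 7717 CPM in KO and 6366 to 7657 CPM in WT, and 5 oligodendrocyte genes to 30370 to 30650 CPM in KO and 29210 to 34490 CPM in WT.

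The ER route is shown first by sequence, because its promoters can be set beside that of Hspa5, the chief ER chaperone, which pulls chains through the channel and which stood at 204 and 213 CPM in KO, against 298, 293 and 346 CPM in WT. The 100 bases before the RefSeq start are given 5′ to 3′ (build GRCm38.p6) for Hspa5, for Sec63 and Ssr3, which are the members of smallest unadjusted p that have a promoter in the table, and for Sec24d. Capitals mark CCAAT and CCACG, on either strand. They also mark TGACGTGG, the core of the element that XBP1 binds, whose other strand begins with the second of these short motifs.
Sec63, chr10:42761396-42761495, plus strand: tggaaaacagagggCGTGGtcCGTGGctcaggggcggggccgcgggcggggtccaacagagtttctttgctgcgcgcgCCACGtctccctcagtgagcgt
Ssr3, chr3:65392554-65392653, minus strand: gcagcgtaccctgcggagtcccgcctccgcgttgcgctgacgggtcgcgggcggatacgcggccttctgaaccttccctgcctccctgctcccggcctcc
Sec24d, chr3:123267396-123267495, plus strand: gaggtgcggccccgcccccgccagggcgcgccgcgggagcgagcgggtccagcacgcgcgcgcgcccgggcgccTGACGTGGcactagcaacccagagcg
Hspa5, chr2:34771990-34772089, plus strand: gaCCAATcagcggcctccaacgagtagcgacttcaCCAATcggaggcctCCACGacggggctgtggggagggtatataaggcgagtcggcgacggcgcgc

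The classical ER stress element is CCAAT and CCACG with 9 bases between them, and Hspa5 holds it from base 65 to base 47 before its start. Over the 250 bases before the start and both strands, the element was found in 37 of 32851 windows of all genes (0.113%) and in 0 of the 41 windows that belong to 38 of the 49 members. The second form, ATTGG and CCACG with 1 base between them, was in 0 of the 41 windows and in 0.0304% of all windows. TGACGTGG occurred in 1 of the 41 windows, that of Sec24d, and in 0.563% of all. The short CCACG stood in 20 of the 41 windows (48.8%) against 28.3% of all windows, and CCAAT in 17 (41.5%) against 33.8%. A match describes letters only, and the absence of a match concerns this window alone.

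None of the 49 members passed in the KO cord. All of them were tested, and 0 had an adjusted p under 0.05 (edgeR's quasi-likelihood test, Benjamini-Hochberg over all genes), where 0.0187% of all genes were called. At an adjusted p under 0.1 the members passed were again 0, beside 0.0934% of all genes. DESeq2 passed 0 members, beside 0.299% of the genes it adjusted, and limma-voom passed 0. At an unadjusted p under 0.05 stood 3 members, Ssr3, Spcs3 and Sec63, all lower in KO, which is 6.12% of the list beside 7.57% of all genes tested. Over all genes 4.07% were lower and 3.49% higher at that p. The log2 fold changes, KO over WT, ran from −0.21 for Spcs3 to 0.39 for Srp54a, with a median of −0.04 beside 0.00 over all genes tested. On the linear scale that median is a difference of −2.77%.

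The sign of the differences leaned to lower values in KO. Of the 49 members 38 had a negative log2 fold change (77.6%), where 48.7% of all genes did. As the list was chosen with earlier results of these data known, its shares are not those of an independent list. In 12 members (24.5%) both KO libraries lay below every WT library, against 1920 of 16052 genes tested (12%), and in 2, Srp54a and Sec24b, both lay above, against 12.9% of all genes. Against their own errors, 28 of the 49 members lay within 1 standard error of 0 and 45 within 2, beside 9443 and 14368 of the 16052 genes tested. Their standard errors had a median of 0.07 and ran from 0.06 to 0.19.

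The size of the lean depended on which libraries were in the fit. The mean log2 CPM over the 49 members, relative to the WT mean, was −0.04 in both KO libraries, against −0.02, −0.04 and 0.06 in WT replicates 1, 2 and 3. WT replicate 3 had the highest level of 28 of the 49 members, whereas it had the highest level of 21.3% of all genes tested. Without WT replicate 3, 31 members were lower, the median was −0.03 and 0 had an unadjusted p under 0.05. Without WT replicate 2 the lean was larger, with 39 members lower, a median of −0.08 and 4 at that p. Without WT replicate 1, 37 were lower, the median was −0.06 and 3 were at that p. Leaving out KO replicate 1 or KO replicate 2 gave medians of −0.04 and −0.05, with 1 and 0 members at that p.

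WT replicate 3 also had the highest summed levels of markers of several other cell types. The 10 meningeal fibroblast markers summed to 295.8 and 301 CPM in KO, against 229.6, 455.8 and 547.4 CPM in WT replicates 1, 2 and 3, and all 10 had negative log2 fold changes with summed levels that overlapped between the genotypes. None of these 10 was at 0 counts. The 5 Schwann cell markers summed to 335.4 and 479.9 CPM in KO and to 275.1, 438.3 and 558.4 CPM in WT. The 5 microglia markers summed to 331.9 and 300.8 CPM in KO, against 334.1, 314 and 362.8 CPM in WT. The 5 astrocyte markers summed to 5319 and 5131 CPM in KO, against 5531, 4996 and 5729 CPM in WT. In bulk tissue fewer cells of a type and less RNA per cell cannot be told apart. With the meningeal fibroblast level as a covariate, the median of the members was −0.04, 34 were lower and 1, Ssr3, had an unadjusted p under 0.05. Because the marker sums of the KO libraries were nearly equal, the slope in that fit rested on the WT libraries. It does not settle the part of the meningeal fibroblast level in these values. Among the other marker lists the genotypes did not overlap for 2. The 5 genes of spinal position summed to 153.3 and 158.8 CPM in KO, against 115.4, 88.7 and 134 CPM in WT, with 0 of the 4 tested lower in KO, and each gene by itself overlapped between genotypes. The similar KO sums hide differences between KO replicates 1 and 2. Hoxc10 stood at 4.78 and 33.3 CPM in these, against 6.01, 5.57 and 17.7 CPM in WT. Hoxd10 stood at 0 and 7.31 CPM, against 0.06, 0 and 0.43 CPM in WT. Hoxc8 went the other way between the KO libraries, at 115.3 and 84.6 CPM. The 5 plasma cell genes summed to 68.3 and 58.1 CPM in KO, against 58.0, 55.4 and 52.5 CPM in WT, with 1 of the 3 tested lower in KO. That sum is mostly Ighm, at 64.8 and 54.2 CPM in KO and 53.5, 49.04 and 47.2 CPM in WT. Sdc1 stood the other way, at 3.00 and 2.88 CPM in KO and 3.57, 5.72 and 5.05 CPM in WT, and Jchain, Mzb1 and Igkc were each under 1 CPM in every library. The part of the Schwann cell, microglia, astrocyte, spinal position and plasma cell levels in these values was not tested.

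**Figure D1:**
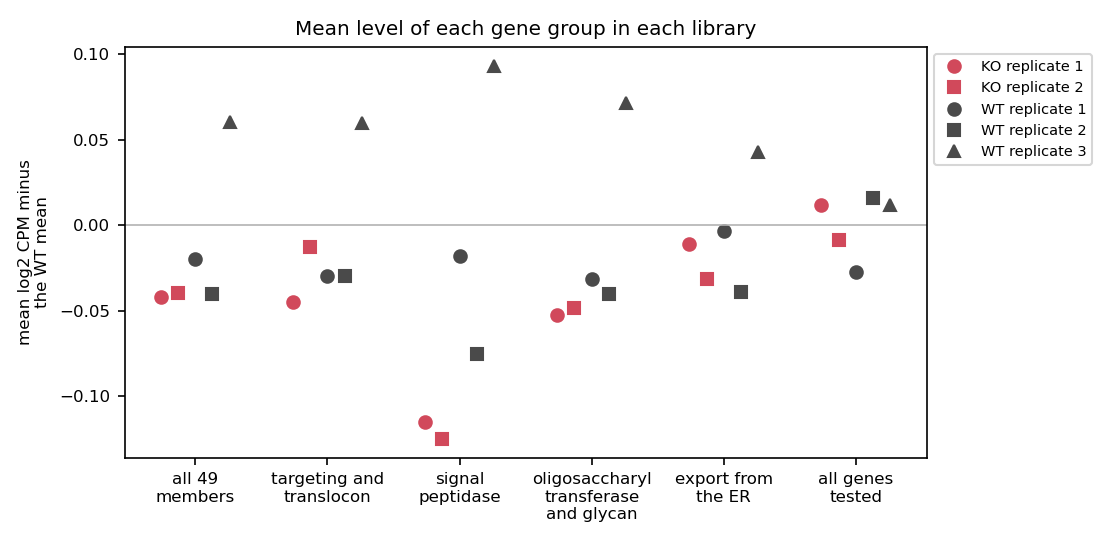
Mean log2 CPM of the members in each library, minus the mean of the 3 WT libraries, for all 49 members, for each of the 4 gene groups and for all 16052 genes tested. Red points are KO and grey points WT libraries; WT replicate 3 (triangles) is highest in all 4 groups, and both KO libraries are lowest only for signal peptidase and the oligosaccharyl transferase group.

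Under the fit, the precision of the data bounds the size of a member's difference. The 95% interval of the log2 fold change, from the same fit, had a median half-width of 0.16, and in 41 of the 49 members the whole interval lay within a 1.25-fold change either way. The share of all genes tested within that bound was not computed. The median standard error was 0.07 for the members, at a median level percentile of 76.0, beside 0.11 over all genes tested. The count of 41 describes precision and is not a result about this route. Hspa5 had a log2 fold change of −0.58 (SE 0.08), with an interval from −0.76 to −0.41 and an adjusted p of 0.0589. In all 49 members the interval lay wholly above −0.58, as it did in 81.5% of all genes tested. That value is the estimate for Hspa5 without its error. The lowest bounds among the members were −0.408 for Sec11a and −0.407 for Tram1. Both fell inside the interval of Hspa5, which ended at −0.406.

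**Figure D2:**
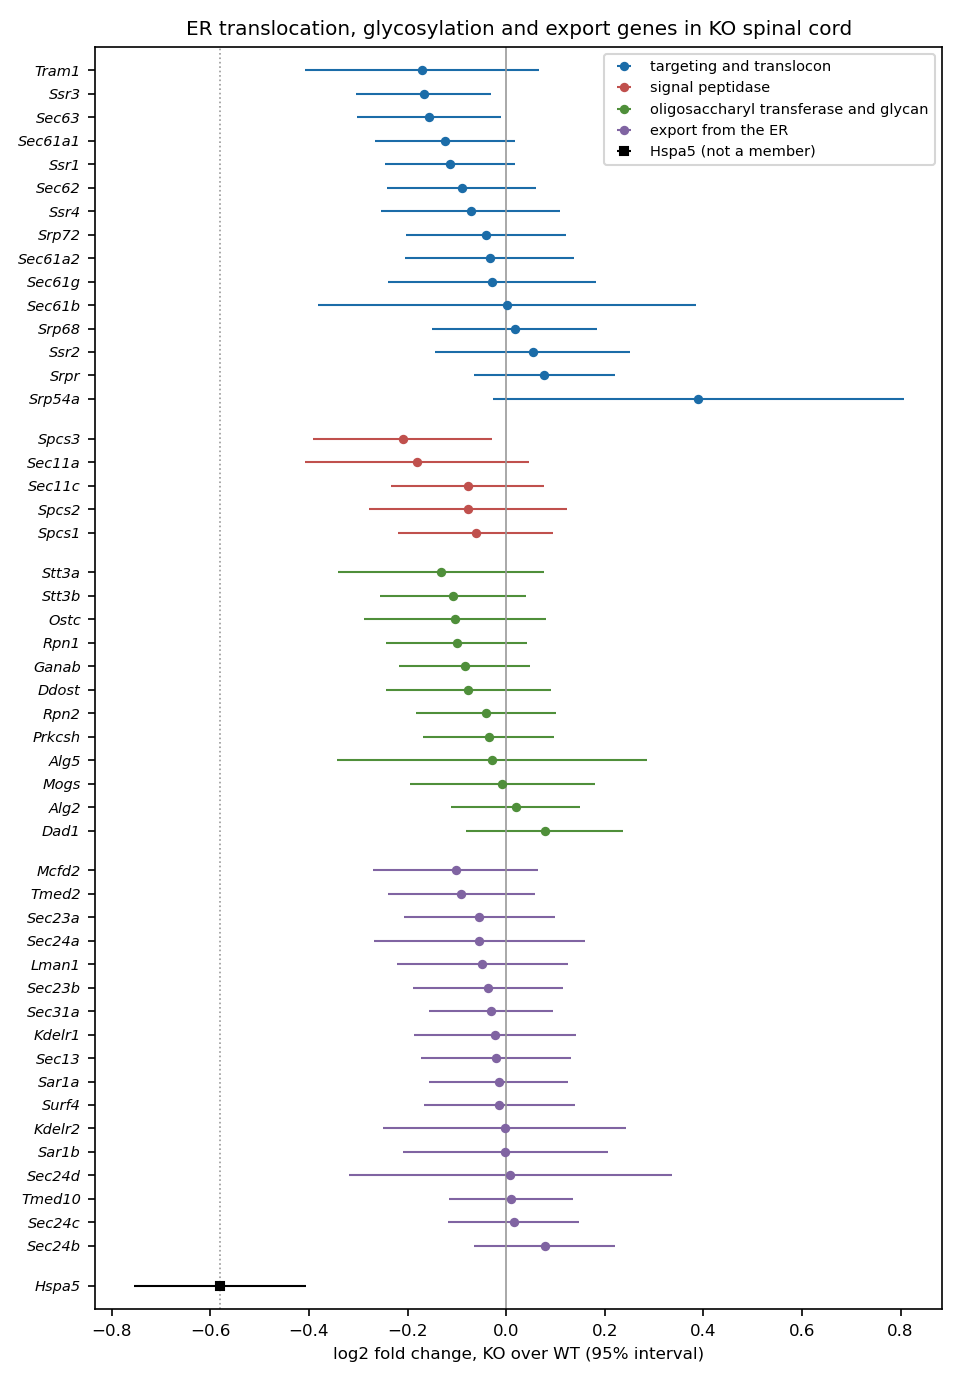
Log2 fold change, KO over WT, with its 95% interval for each of the 49 members, coloured by gene group, and for Hspa5 (black square). The solid line marks 0 and the dotted line the −0.58 of Hspa5, which no member's interval reaches. The intervals of Sec11a and Tram1 overlap the upper end of the interval of Hspa5.

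Targeting begins with SRP, which is built from several proteins on an RNA. Srp54a, one of the genes for the subunit that holds the signal peptide, had 5.89 and 5.0 CPM in KO, against 3.99, 3.88 and 4.62 CPM in WT. Both KO libraries were higher than every WT library, by 0.39 on the log2 scale (SE 0.19; adjusted p = 0.681 in edgeR's test). The counts of Srp54a are uncertain, since 70.4% of the distinct 50-base stretches of its transcripts also occur in its near copy Srp54b, which is listed at 0 in all 5 libraries. The other copy, Srp54c, stood at 17.6 and 16.4 CPM in KO and at 19.8, 17.8 and 20.0 CPM in WT, with a log2 fold change of −0.17 (SE 0.10). The larger SRP subunits Srp68 and Srp72 and the receptor gene Srpr had log2 fold changes of 0.02, −0.04 and 0.08, and their genotypes overlapped.

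In the channel and its partners, 6 of 7 genes had a negative log2 fold change. Sec63 encodes the membrane protein that brings Hspa5's product to the channel (chromosome 10 from 42761496 to 42832514, plus strand). Its level was 89.1 and 90.4 CPM in KO, against 100.0, 94.8 and 105.5 CPM in WT. Every KO library was below every WT library, and its difference on the log2 scale was −0.16 (SE 0.07; unadjusted p = 0.0382, adjusted p = 0.647). Its partner Sec62 was the most abundant member by CPM, at 219 and 221 in KO against 244, 216 and 244 in WT, where the genotypes overlapped (−0.09, SE 0.07).

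The pore itself is formed by Sec61a1 or its paralogue Sec61a2, together with the small subunits Sec61b and Sec61g. Sec61a1 had 57.3 and 59.2 CPM in KO, against 61.4, 64.2 and 64.9 CPM in WT, without overlap, and KO differed from WT by −0.12 on the log2 scale (SE 0.06; adjusted p = 0.707). For Sec61a2 the KO libraries, at 52.1 and 60.6 CPM, enclosed the WT libraries at 58.7, 57.1 and 57.2 CPM. Sec61b and Sec61g had log2 fold changes of 0.00 (SE 0.17) and −0.03 (SE 0.09). The wide error of Sec61b goes with the largest WT spread of any member, a coefficient of variation of 20.1% at about 10.2 CPM in either genotype. Tram1, a membrane protein beside the channel, had 29.7 and 33.1 CPM in KO and 31.8, 34.2 and 40.0 CPM in WT (−0.17, SE 0.11), and the genotypes overlapped.

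The translocon-associated protein (TRAP) complex helps chains with weak signals to enter. Its gamma subunit gene Ssr3 (chromosome 3 from 65379655 to 65392623, minus strand) had 139.6 and 137 CPM in KO, against 154, 149 and 163 CPM in WT. The genotypes did not overlap, and with a difference of −0.17 on the log2 scale (SE 0.06; unadjusted p = 0.0217, adjusted p = 0.621) it had the smallest p among the 49. Ssr1, the alpha subunit gene, lay at 158 and 164 CPM in KO and at 173, 170.0 and 181 CPM in WT, again without overlap (−0.11, SE 0.06; adjusted p = 0.707). Ssr4 (−0.07, SE 0.08) and Ssr2 (0.05, SE 0.09), of the delta and beta subunits, overlapped between genotypes. The estimates for the subunits did not share a sign, and that of Ssr2 lay within its error of 0. Over the alternative fits Ssr2 ran from −0.02 without WT replicate 1 to 0.13 with the meningeal fibroblast covariate.

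Signal peptidase was the group in which every gene had a negative log2 fold change in the fit without covariates, 5 of 5, with a median of −0.08. With the replicate number as a block, where WT replicate 3 does not enter the KO difference, Spcs2 was at 0.02 and Spcs1 at −0.01. Spcs3, Sec11a and Sec11c stayed negative under every alternative. Spcs3, a subunit that the enzyme requires (chromosome 8 from 54520433 to 54529998, minus strand), had 42.4 and 39.0 CPM in KO, against 45.0, 45.8 and 50.7 CPM in WT. Every KO library was lower than every WT library, and the difference of −0.21 on the log2 scale (SE 0.08; unadjusted p = 0.0269, adjusted p = 0.626) was the most negative of the 49. Without KO replicate 2 it was −0.15, and without KO replicate 1 it was −0.28.

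Sec11a and Sec11c encode alternative catalytic subunits of the enzyme. Sec11a stood at 15.6 and 15.2 CPM in KO, against 18.4, 16.6 and 17.4 CPM in WT, without overlap (−0.18, SE 0.10; adjusted p = 0.718). Sec11c overlapped, with 112 and 116 CPM in KO and 122, 112 and 128 CPM in WT (−0.08, SE 0.07). Spcs1 and Spcs2, the accessory subunits, had log2 fold changes of −0.06 (SE 0.07) and −0.08 (SE 0.09). As a mean over the 5 genes, the KO libraries were at −0.12 and −0.13 on the log2 scale relative to the WT mean, below WT replicates 1, 2 and 3 at −0.02, −0.08 and 0.09.

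**Figure D3:**
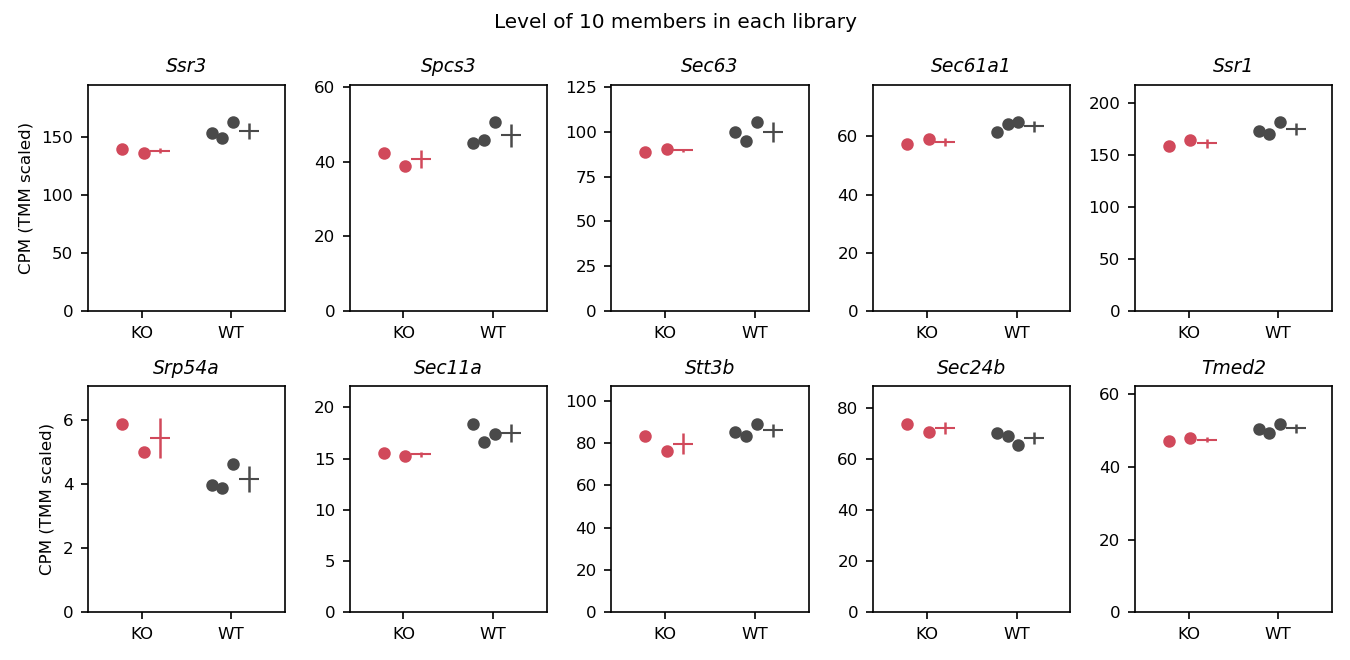
CPM in each library for 10 members, with KO left of WT; the bar beside each set of points gives the mean and SD (2 KO and 3 WT libraries), and the vertical axes start at 0. All 10 shown are among the members whose genotypes do not overlap, so they do not stand for the whole list. The KO points lie below the WT points in 8 of the 10 genes and above them for Srp54a and Sec24b, by distances that are small beside the levels themselves. Of the 49 members, 12 lay wholly below and 2 wholly above, beside 1920 and 2075 of the 16052 genes tested.

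Among the 12 genes of the oligosaccharyl transferase and its glycan 10 had a negative log2 fold change, with a median of −0.06, and 0 had an unadjusted p under 0.05. The enzyme comes in forms built around Stt3a, which acts on chains during entry, or Stt3b, which acts on sites left over. Stt3b had 83.2 and 76.3 CPM in KO, against 85.4, 83.3 and 89.1 CPM in WT, with KO replicate 1 just under WT replicate 2 (−0.11, SE 0.07; adjusted p = 0.732). Stt3a had 43.2 and 44.8 CPM in KO and 46.8, 43.8 and 54.3 CPM in WT, and the genotypes overlapped (−0.13, SE 0.09).

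Rpn1, a subunit shared by both forms, and Ostc, a small subunit of the Stt3a form, were lower in both KO libraries than in every WT library. Rpn1 stood at 113 and 112 CPM in KO against 116, 117 and 128 CPM in WT (−0.10, SE 0.06; adjusted p = 0.747). Ostc had a log2 fold change of −0.10 (SE 0.08). Rpn2 (−0.04, SE 0.06), Ddost (−0.08, SE 0.07) and Dad1 (0.08, SE 0.07), also shared subunits, overlapped between genotypes. The sugar tree is built by enzymes such as the mannosyltransferase Alg2 (0.02, SE 0.06) and the glucosyltransferase Alg5 (−0.03, SE 0.14), both within their errors of 0.

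Trimming begins with glucosidase I, encoded by Mogs, and goes on with glucosidase II, whose catalytic subunit is Ganab and whose beta subunit is Prkcsh. Ganab stood at 138 and 135 CPM in KO, against 149, 139 and 147 CPM in WT, without overlap though KO replicate 1 lay just under WT replicate 2 (−0.08, SE 0.06; adjusted p = 0.763). Mogs and Prkcsh had log2 fold changes of −0.01 (SE 0.08) and −0.04 (SE 0.06), and both overlapped between genotypes.

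Export from the ER was the group nearest to 0. Its 17 genes had a median log2 fold change of −0.02, from −0.10 for Mcfd2 to 0.08 for Sec24b, 14 lay within 1 standard error of 0 and 17 within 2, and 0 had an unadjusted p under 0.05. The COPII coat starts with the GTPase Sar1a or Sar1b (−0.02, SE 0.06 and −0.00, SE 0.09), which recruits Sec23 and Sec24, while Sec13 and Sec31a form the outer cage. Sec24 proteins choose the cargo. Sec24b had 73.9 and 70.5 CPM in KO, against 70.5, 69.1 and 65.7 CPM in WT, with KO replicate 2 at 70.51 and WT replicate 1 at 70.45 almost touching (0.08, SE 0.06; adjusted p = 0.792). Sec24a (−0.05, SE 0.10), Sec24c (0.02, SE 0.06) and Sec24d (0.01, SE 0.15) overlapped between genotypes, as did Sec23a (−0.05, SE 0.07) and Sec23b (−0.04, SE 0.07). Sec31a had the tightest WT libraries of all members, with a coefficient of variation of 1.18%, at 119 and 118 CPM in KO and 120.1, 122 and 119.9 CPM in WT, where KO was lower throughout (−0.03, SE 0.06). Sec13 had a log2 fold change of −0.02 (SE 0.07).

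Cargo receptors carry proteins into the buds, and retrieval receptors bring ER residents back. Lman1 and Mcfd2 form a receptor pair for coagulation factors and other glycoproteins. Mcfd2 had 47.8 and 52.5 CPM in KO and 50.8, 54.9 and 55.8 CPM in WT (−0.10, SE 0.08), and Lman1 had a log2 fold change of −0.05 (SE 0.08), with overlap for both. Tmed2, of a family of cargo adaptors found on both COPII and COPI vesicles, stood at 46.9 and 47.9 CPM in KO against 50.5, 49.2 and 51.8 CPM in WT, without overlap (−0.09, SE 0.07; adjusted p = 0.771). Its partner Tmed10 had 181 and 182 CPM in KO and 179.6, 176 and 185 CPM in WT (0.01, SE 0.06). Surf4, a receptor for soluble secreted cargo, was at −0.01 (SE 0.07). The KDEL receptors, which return Hspa5's product and other chaperones that escape, had log2 fold changes of −0.02 (SE 0.07) for Kdelr1 and −0.00 (SE 0.11) for Kdelr2.

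The levels of the members in the cord spanned a wide range. By CPM, the median member stood at the 76.0 percentile of the genes tested and 44 of the 49 were above the median gene. Per kilobase of the principal transcript, Sec11c was highest at 137 CPM per kilobase, followed by Tmed10 at 122 and Spcs1 at 91.5, while Srp54a was lowest at 1.04, then Sec24a at 4.30 and Sec24d at 4.65. In the translocon group Sec62 led at 57.7 CPM per kilobase and in the glycan group Alg2 at 51.1, next to Rpn2 at 51.0. These levels depend on the length used. Over the length of all annotated exons, an alternative added after the data were seen, Sec11c came to 17.3 and Tmed10 to 31.1 CPM per kilobase, and Sec62 was highest of the 49 at 52.7.

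**Figure D4:**
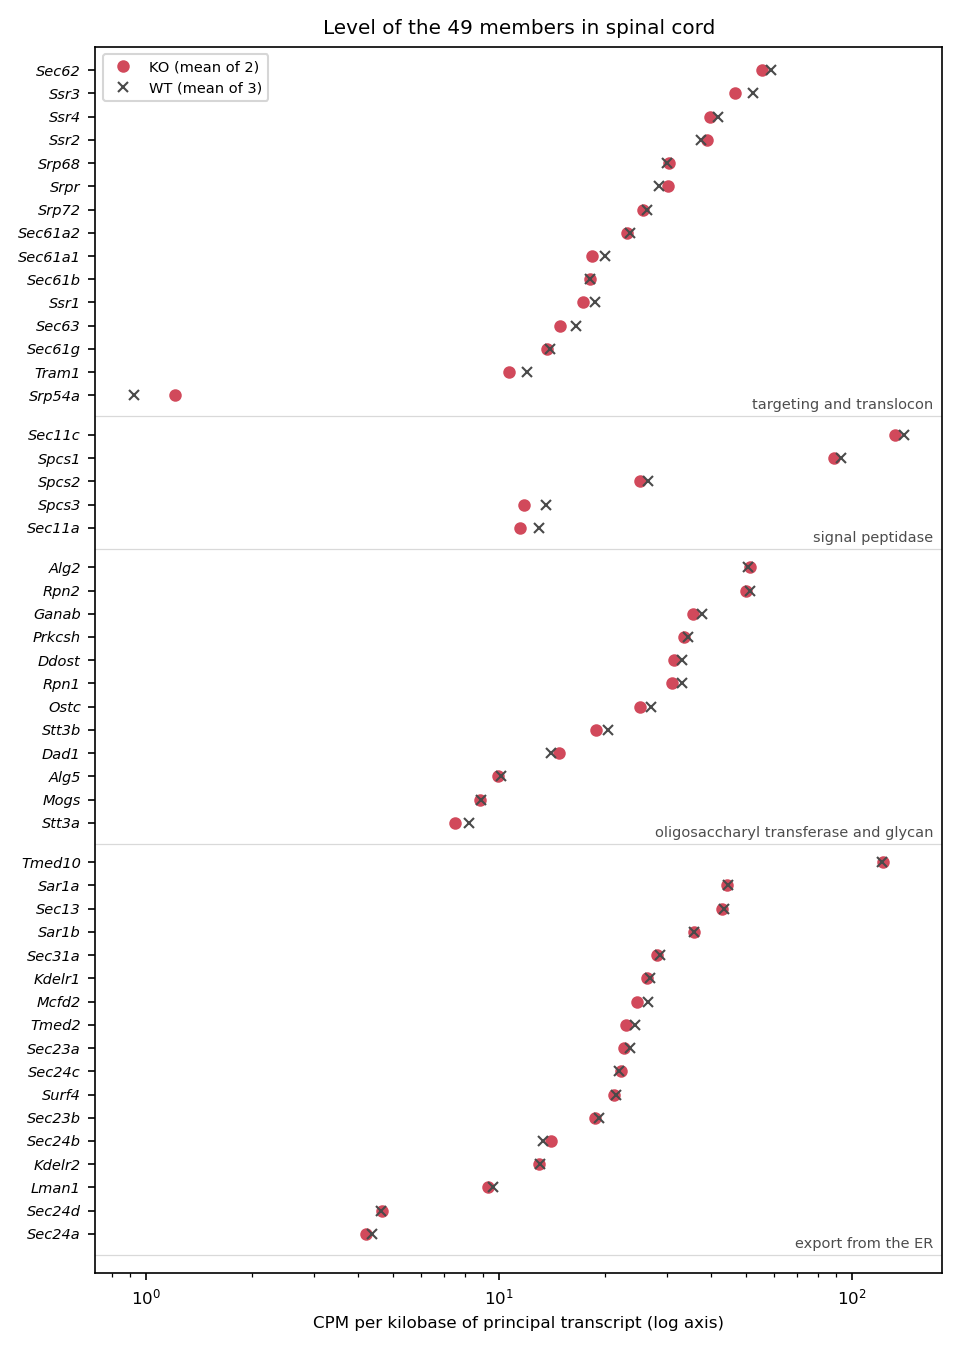
Level of each of the 49 members as CPM per kilobase of its principal transcript, on a log axis, as the mean of the 2 KO libraries (red circles) and of the 3 WT libraries (grey crosses). Within each group the order runs from highest to lowest, and the symbols of the genotypes lie close together from Sec11c at 137 down to Srp54a at 1.04.

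Paralogues that can stand in for each other had shares that differed little beside the spread between libraries. Of the summed level per kilobase of the Sec24 genes, Sec24c made up 49.2% ± 1.13 in KO (SD, n = 2) and 49.5% ± 0.706 in WT (SD, n = 3), and Sec24b 31.2% ± 0.118 in KO and 30.1% ± 0.838 in WT. Only the share of Sec24b, among the 16 shares of the 7 sets, did not overlap between genotypes. In sets of 2 genes the shares mirror each other, so the 16 are not separate values. Lack of overlap is also common with so few libraries. By level, both KO libraries lay below every WT library in 1920 and above in 2075 of the 16052 genes tested. Sec11c held 92.0% ± 0.295 of the catalytic signal peptidase level in KO and 91.5% ± 0.410 in WT. Stt3b held 71.6% ± 1.75 in KO and 71.3% ± 1.57 in WT.

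Sec61a2 held 55.6% ± 2.08 of the pore subunit level in KO and 54.1% ± 1.1 in WT, so that the levels of both pore genes were near each other in the cord. Kdelr1 held 66.9% ± 1.24 in KO and 67.2% ± 2.89 in WT, and Sec23a 54.8% ± 0.262 in KO and 55.1% ± 0.606 in WT. These shares depend on the length used: over all exons Sec23a held 70.2% across the 5 libraries. For the Sar1 pair the length decides which is higher: Sar1a held 55.3% ± 1.42 in KO and 55.6% ± 2.75 in WT by principal transcript, whereas over all exons Sar1b held 52.4% across the 5 libraries.

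**Figure D5:**
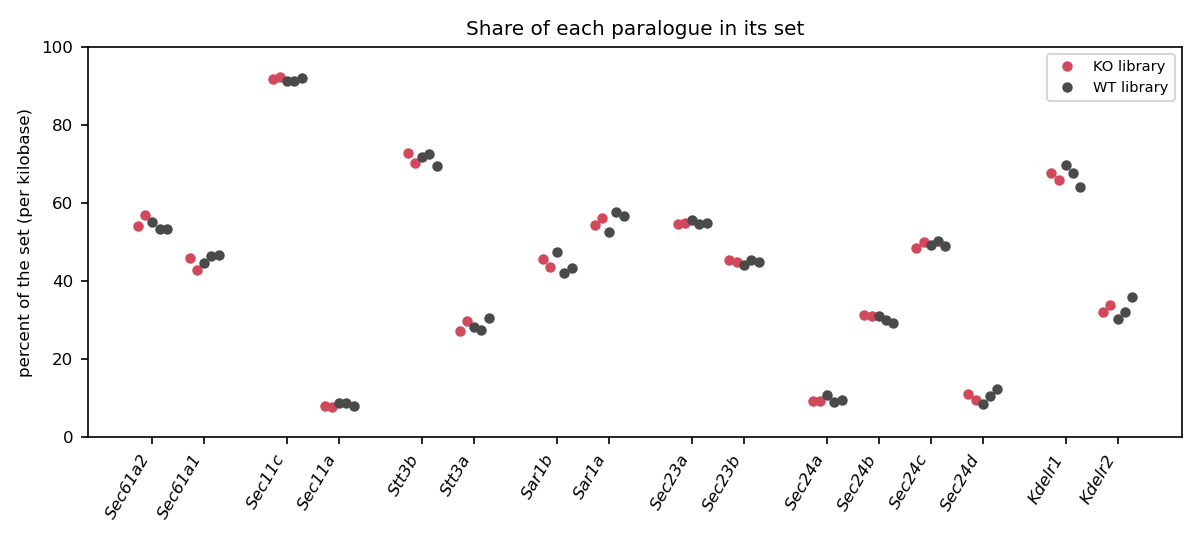
Share of each paralogue in the summed CPM per kilobase of its set, in percent, with 1 point for each KO library (red) and each WT library (grey). The red and grey points overlap for every gene but Sec24b, at 31.3% and 31.1% in KO and 31.0%, 30.0% and 29.4% in WT.

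Another 96 genes of the same route, listed by role, stood on both sides of 0. None passed over all genes, where 0.0187% of all genes did. Of the 96, 45 had a negative log2 fold change, beside 48.7% of all genes, and the median was 0.01. At an unadjusted p under 0.05 stood 5 (5.21%), beside 7.57% of all genes. In targeting and membrane insertion, 17 of 26 had a positive log2 fold change, beside 8233 of the 16052 genes tested, and 1 had an unadjusted p under 0.05. In 7 of these 26 (26.9%) both KO libraries lay above every WT library, beside 12.9% of all genes, and in 0 both lay below, beside 12% of all genes. Ncln, which encodes nicalin of a translocon-bound complex, had 54.6 and 55.3 CPM in KO, against 46.8, 49.4 and 45.3 CPM in WT, without overlap (0.22, SE 0.07; unadjusted p = 0.00980, adjusted p = 0.529). Emc10, of the ER membrane complex that inserts transmembrane segments, had 164 and 163 CPM in KO and 149, 159 and 139 CPM in WT (0.13, SE 0.07).

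Of 27 further N-glycosylation genes 16 had a negative log2 fold change. Magt1, an oxidoreductase subunit of the Stt3b form, was at 52.4 and 55.2 CPM in KO, against 64.5, 55.3 and 71.6 CPM in WT, with KO replicate 2 just under WT replicate 2 (−0.24, SE 0.10; adjusted p = 0.644). Dpm3, which anchors the enzyme that makes dolichol phosphate mannose, was at 9.94 CPM in both KO libraries, against 7.68, 8.12 and 8.25 CPM in WT (0.31, SE 0.13; adjusted p = 0.647). Of 31 further genes of ER exit and transport to the Golgi 14 had a negative value, with the cargo adaptors Tmed5 at 33.6 and 31.1 CPM in KO against 47.2, 34.2 and 42.9 CPM in WT (−0.35, SE 0.12; adjusted p = 0.597) and Tmed7 at −0.16 (SE 0.08). The COPI coat, which runs the return route, had 6 of 12 on either side, with Cope at 0.15 (SE 0.07; unadjusted p = 0.0497) and Copb1 at −0.13 (SE 0.08).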

How the data were processed

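The deposited values are whole-number read counts per gene, without normalization, that the authors made with cutadapt, Trimmomatic, STAR 2.5.2b and HTSeq on GRCm38, per the submitters' processing notes. Neither the annotation release nor the strand setting is given in the sources used here. Groups came from the sample titles. No label says that libraries were separate litters or days, so p-values measure only how far these samples scatter, part of which may be technical. Libraries of a group differed beyond sampling noise (chi-square per degree of freedom 4.17 to 7.90), so none was counted as a duplicate.

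Genes were filtered with filterByExpr (minimum count 10, minimum total 15), scaled by TMM (factors 0.982 to 1.01) and compared by edgeR's quasi-likelihood test without covariates (edgeR 4.0.16, run in R 4.3.3). Adjusted p-values are Benjamini-Hochberg over all 16052 genes, with a threshold of 0.05. Standard errors are the log2 fold change over the root of F, and 95% intervals use the fit's degrees of freedom. The fit and its intervals were also run on counts simulated from the fit's own dispersions. That run cannot show whether the real libraries follow the model. Symbols, lengths and positions are from GENCODE M21, and promoters from RefSeq (GRCm38.p6). The principal transcript is the longest of the best APPRIS class. Alternatives used DESeq2 1.42.0 and limma-voom 3.58.1 among others.

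Members and lists were chosen with earlier results of these data known. Named members are those of smallest p in each group, the paralogue sets and the highest and lowest levels. Get1 and Get3 were matched as Wrb and Asna1 by hand, and Camlg through another name. Without a stated strand setting, members that share exons on the opposite strand are uncertain. These include Sec61a2 with Nudt5 (909 bases), Spcs1 with Glt8d1 (252 bases) and Surf4 with Surf2 (144 bases). Of the 49 members, 9 share over 10% of their 50-base stretches with another gene.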

Additional observations from a re-analysis of the deposited data

How the results depend on the processing

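No alternative passed a member over all genes, and the median log2 fold change of the members stayed negative throughout, from −0.08 without WT replicate 2 to −0.03 with the replicate number as a block. WT replicate 3 has no KO library of its number, so it does not enter the KO difference in the block fit. Members at an unadjusted p under 0.05, 3 in the report, were 1 with DESeq2, 1 with the replicate block, 1 with the meningeal fibroblast covariate and 0 to 4 with a library left out, the 0 being without KO replicate 2 or WT replicate 3. Of the 49 members 28 kept their sign under all 12 alternative fits, 24 lower and 4 higher. The share over all genes tested was not computed. These fits reuse the same libraries, so a kept sign is not separate support for a difference. Over all genes, the 3 calls became 6 with DESeq2-style size factors, 96 without the filter, 12 with robust dispersion, 42 with DESeq2, 1 with limma-voom, 25 with the replicate block, 7 with the meningeal covariate, 15 at an adjusted p under 0.1 and 0 to 58 with a library left out (0 without KO replicate 1, 58 without WT replicate 1, 10 without WT replicate 3, 1 without WT replicate 2). The cause was not tested. Equal replicate numbers are not stated to pair animals, and their deviations correlated at 0.06 (replicate 1) and 0.00 (replicate 2). The deviations of the 2 KO libraries from their mean mirror each other. These correlations are thus not separate checks and do not settle whether animals were paired. Depth limits Srp54a most, at 67 counts in its lowest library. Fold changes with a single KO library assume that it varies like the WT libraries.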
